A study of Mus musculus with 4 samples.

Results

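The genes described here form the arm of signalling that the V1a vasopressin receptor uses inside the cell. They are the G protein alpha subunits Gnaq and Gna11, the phospholipases C Plcb1, Plcb3 and Plcb4, the inositol trisphosphate (IP3) receptors Itpr1 and Itpr2, the regulators of G protein signalling Rgs2 and Rgs4, and the calcium/calmodulin-dependent kinase Camk2d. The 10 genes were chosen by name, and every probe set annotated to exactly 1 of them was taken. This gave 40 of 45037 probe sets, which read 9 of the 10 genes. Itpr1 was not analysed here. RNA came from adrenal glands of wild-type and V1a knockout (V1aKO) mice, all male and 2 months old, and 2 samples of each genotype were hybridised, each to its own array. The 4 samples thus share sex, age and tissue, and the labels name neither the strain nor the part of the receptor gene that was disrupted. They also do not say whether the samples of a genotype came from separate animals, so each p-value rests on the spread of these samples, part or all of which may be technical.

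Vasopressin bound to V1a activates Gq and its close relative G11, whose alpha subunits switch on phospholipase C beta. This enzyme cuts a membrane lipid into IP3 and diacylglycerol, IP3 opens receptor channels on the endoplasmic reticulum, and the calcium that leaves the store acts through calmodulin on kinases such as Camk2d. RGS proteins speed up the hydrolysis of GTP on the alpha subunit and so end the signal. In the adrenal cortex the same chain serves the angiotensin II type 1 receptor, which drives aldosterone production, and in the medulla it serves receptors that trigger catecholamine release.

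Values are log2 expression units made with GCRMA, in which 1 unit is a 2-fold difference, and differences are knockout minus wild type. Avpr1a (gene ID 54140), the targeted receptor gene, does not check the genotype labels. Its probe sets read 2.53, 2.53, 2.53 and 2.60, and 2.31, 2.32, 2.32 and 2.33, on wild-type arrays 1 and 2 and knockout arrays 1 and 2, near the floor of 2.304 that the lowest probe sets share. The array measures a gland in bulk, so fewer cells of a type and less RNA per cell cannot be told apart. Wild-type array 1 stood apart: over all tested probe sets it correlated with the other 3 arrays at 0.92, while these correlated with each other at 0.97 to 0.99. The differences of the member genes are therefore given with and without it, and those of single genes outside this set on all 4 arrays only.

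Of the 40 probe sets, 23 were tested because they reached 4 units on 2 arrays or more, and they covered all 9 genes. The other 17 read at most 3.62 on any array. They belong to Camk2d and Plcb4 (4 each), Plcb1 and Itpr2 (3 each), Gnaq (2) and Rgs4 (1), genes that each have a tested probe set as well.

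None of the 9 genes analysed passed the threshold for a difference between the genotypes. In limma, 0 of the 23 probe sets passed an adjusted p of 0.05, with a smallest adjusted p of 0.794, and 0 of 17228 passed over the whole array. At an unadjusted p under 0.05 there were 0 of 23, where 5.14% of all tested probe sets lay (2.13% with the knockout higher and 3.01% lower). An exact permutation test of 2 arrays against 2 cannot go below 0.333. The knockout mean was higher on 12 and lower on 11 of the 23, with a median difference of 0.0044 beside -0.038 over all tested probe sets. Wild-type and knockout arrays did not overlap on 9 of the 23, with the knockout higher on 4 and lower on 5, where 37.4% of all tested probe sets did not overlap (17.4% higher and 20.0% lower). A difference of at least 2-fold was read by 3 probe sets, 1 each of Camk2d, Gnaq and Rgs2, where 5.29% of all tested probe sets reached it.

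**Figure D1:**
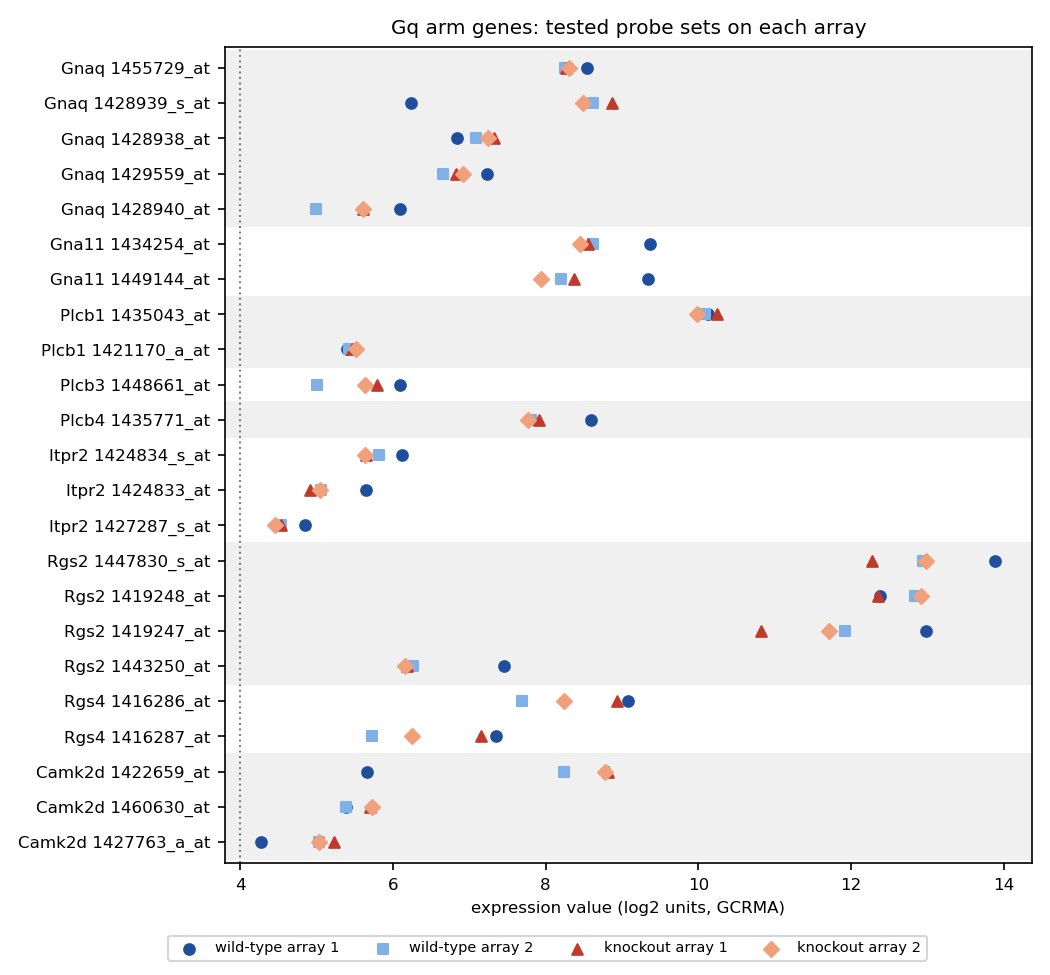
Expression value in log2 units (horizontal axis) of the 23 tested probe sets of 9 genes (rows), with 1 point per array and a dotted line at the filter of 4 units. On Gna11, Plcb4 and Itpr2 the dark blue points of wild-type array 1 lie to the right of the other 3 arrays, and on Camk2d 1422659_at and Gnaq 1428939_s_at far to the left.

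Gnaq encodes the alpha subunit of Gq. Its brightest probe set, 1455729_at, read 8.54 and 8.25 in wild type, against 8.27 and 8.31 in the knockout. The 4 arrays lay within 0.29 units, the groups overlapped, and the difference was -0.10 (95% interval -0.64 to 0.43). Probe set 1428939_s_at read 6.23 on wild-type array 1 and 8.62 on wild-type array 2, and 8.87 and 8.49 in the knockout. Its difference of 1.25 (SE 0.90, limma adjusted p = 0.794) rested on wild-type array 1: without it the knockout mean lay 0.058 above wild-type array 2. The suffix _s_at marks a probe set that can read more than 1 transcript.

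Of the remaining 3 tested probe sets of Gnaq, 2 had a higher mean in the knockout and 1 a lower mean. On 1428938_at the values were 6.84 and 7.08 in wild type, against 7.33 and 7.25 in the knockout, so the groups did not overlap, with a difference of 0.32 (95% interval -0.19 to 0.84). On 1429559_at the difference was -0.073, and on 1428940_at it was 0.073. Without wild-type array 1 the differences were 0.041 on 1455729_at, 0.20 on 1428938_at, 0.21 on 1429559_at and 0.63 on 1428940_at. Of the Gnaq probe sets, 1428938_at, 1428939_s_at and 1428940_at were designed from the same source sequence, per the platform annotation. Even among these 3, wild-type array 1 was the lowest array on 1428938_at and 1428939_s_at and the highest on 1428940_at.

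Gna11 encodes the alpha subunit of G11, which couples to the same receptors as Gq. Both of its probe sets read lower in the knockout mean. Probe set 1434254_at read 9.37 and 8.62 in wild type, against 8.55 and 8.45 in the knockout, or -0.50 between the means (SE 0.32, limma adjusted p = 0.794), and the groups did not overlap. Probe set 1449144_at read 9.34 and 8.20 against 8.37 and 7.94, a difference of -0.62 (SE 0.47) with overlapping groups. In each case wild-type array 1 was the highest array. The other 3 arrays had a range of 0.17 units on 1434254_at and 0.43 on 1449144_at. Against wild-type array 2 alone the knockout means differed by -0.12 and -0.045. Gna14, another alpha subunit of the Gq class, named after its values were seen, read 9.30 and 8.98 in wild type, against 8.78 and 8.67 in the knockout. Its difference was -0.42 (SE 0.20, limma adjusted p = 0.806 over genes), and the sign was the same on all 3 of its tested probe sets.

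The phospholipases C of the beta class carry the signal from the alpha subunit to IP3. Plcb1 was the steadiest member. Its probe set 1435043_at read 10.13 and 10.08 in wild type, against 10.25 and 9.98 in the knockout, a difference of 0.0044 (95% interval -0.52 to 0.53). The other tested one, 1421170_a_at, read 5.40 and 5.42 against 5.47 and 5.51, a difference of 0.081 (95% interval -0.36 to 0.52), small although the groups did not overlap. These intervals leave room for differences of up to about 0.5 units either way. With wild-type array 1 left out, the differences on these probe sets were 0.028 and 0.068.

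Plcb3 was read by 1 probe set, 1448661_at, at 6.09 and 5.01 in wild type, against 5.79 and 5.63 in the knockout. The wild-type arrays thus lay on both sides of the knockout arrays, and the difference was 0.16 (SE 0.43). Plcb4 read 8.59 and 7.81 in wild type, against 7.91 and 7.76 in the knockout on 1435771_at, a difference of -0.37 (SE 0.33). Here wild-type array 1 was high and the other 3 arrays lay within 0.15 units. Without it the differences were 0.70 for Plcb3 and 0.023 for Plcb4.

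Itpr2 encodes an IP3 receptor, the channel through which calcium leaves the endoplasmic reticulum. All 3 tested probe sets of Itpr2 had a lower mean in the knockout. Probe set 1424834_s_at read 6.12 and 5.81 in wild type, against 5.65 and 5.63 in the knockout, or -0.33 between the means (SE 0.19, limma adjusted p = 0.794). Probe set 1424833_at, designed from the same source sequence, read 5.65 and 5.06 against 4.91 and 5.05, a difference of -0.38 (SE 0.27), and 1427287_s_at differed by -0.19 (SE 0.19). The groups did not overlap on the 2 of a shared source. Wild-type array 1 was the highest array on all 3, and without it the differences shrank to -0.17, -0.080 and -0.038.

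**Figure D2:**
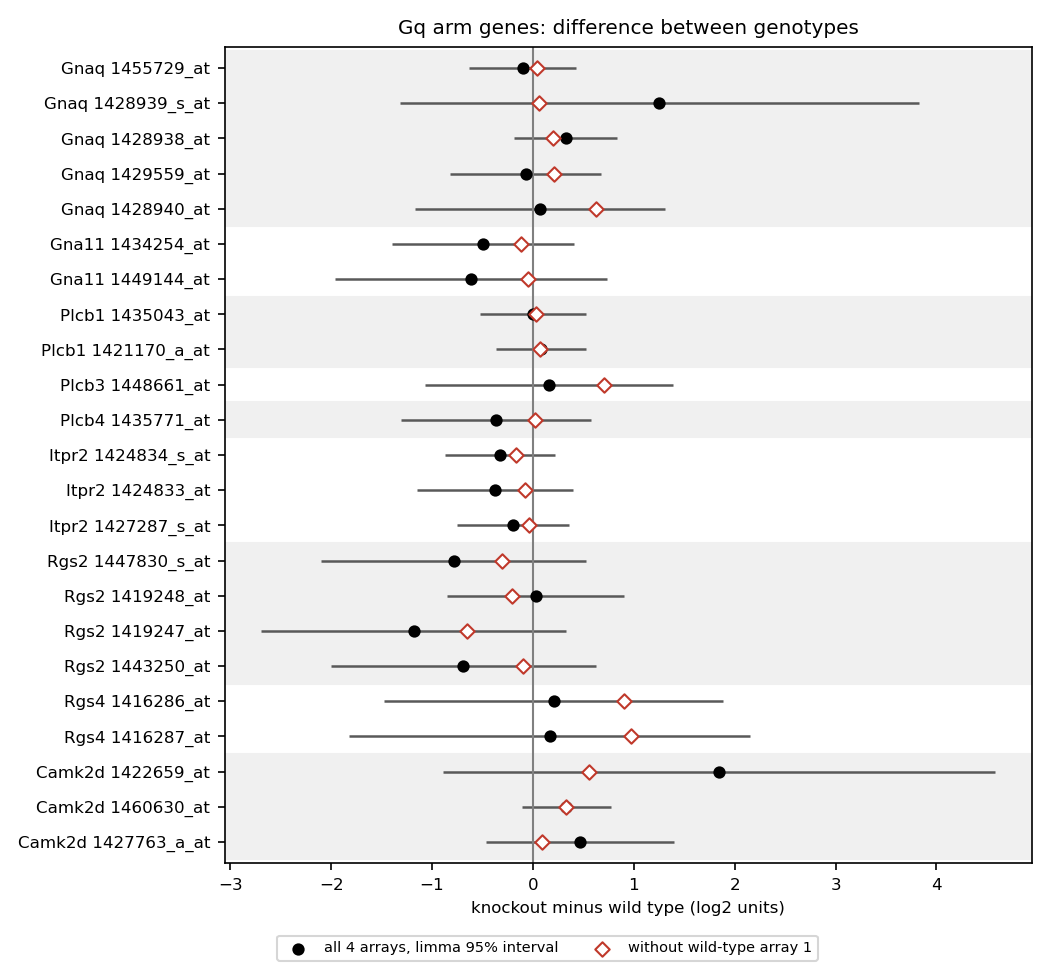
Difference between genotypes, knockout minus wild type in log2 units (horizontal axis), for the 23 tested probe sets (rows). Black points with bars are the limma estimate and its 95% interval on all 4 arrays, and open diamonds are the difference without wild-type array 1. Every bar crosses 0, and the diamonds of Camk2d 1422659_at, Gnaq 1428939_s_at, Gna11, Itpr2 and Plcb4 lie nearer to 0 than the black points.

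Rgs2 and Rgs4 encode small proteins that end signalling by Gq, and Rgs2 does so with a preference for Gq. They were the members that differed most between the knockout arrays. These arrays lay at least 0.5 units apart on 5 of the 23 probe sets, all of them of Rgs2 (3) or Rgs4 (2), where 11.3% of all tested probe sets did so. The wild-type arrays lay that far apart on 15 of the 23 (65.2%, against 44.4% of all tested probe sets), widest on Camk2d 1422659_at and Gnaq 1428939_s_at. This step of 0.5 units was chosen after the values were seen. The 250 bases before their start sites are shown because these genes varied most between the knockout arrays and because no other matched member holds the motif marked. Capitals mark TGACG, the core of the cAMP response element, or its reverse complement CGTCA.

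Rgs2, chr1:144004150-144004399, minus strand: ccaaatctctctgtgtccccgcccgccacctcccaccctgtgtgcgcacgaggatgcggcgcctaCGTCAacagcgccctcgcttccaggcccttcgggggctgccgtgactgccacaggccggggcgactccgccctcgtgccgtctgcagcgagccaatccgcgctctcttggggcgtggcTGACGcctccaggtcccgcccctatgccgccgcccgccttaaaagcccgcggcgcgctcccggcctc
Rgs4, chr1:169747643-169747892, minus strand: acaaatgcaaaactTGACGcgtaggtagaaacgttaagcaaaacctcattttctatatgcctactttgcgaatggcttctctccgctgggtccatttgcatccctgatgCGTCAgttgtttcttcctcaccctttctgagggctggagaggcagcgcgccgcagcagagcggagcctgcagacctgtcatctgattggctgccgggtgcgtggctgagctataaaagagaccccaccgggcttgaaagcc

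These sequences are RefSeq's on GRCm38.p6, written 5′ to 3′ on the strand of the gene. Each holds 2 matches of TGACG on either strand, which begin 185 and 67 bases before the start site in Rgs2 and 236 and 141 bases before it in Rgs4. Of 32851 promoter windows of this length, 17.8% hold at least 1 match and 3.90% at least 2. The windows of Gnaq, Gna11, Plcb1, Plcb3, Plcb4, Itpr2 and Camk2d hold 0. The full element TGACGTCA is in neither sequence and in 1.55% of all windows. A match describes the letters and is no evidence of binding.

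Rgs2 had the lowest unadjusted p of the 23 probe sets. On 1419247_at it read 12.98 and 11.93 in wild type, against 10.83 and 11.72 in the knockout, or -1.18 between the means (SE 0.53, limma unadjusted p = 0.0936, adjusted p = 0.794). The groups did not overlap, though wild-type array 2 and knockout array 2 were 0.21 units apart. On 1447830_s_at it read 13.89 and 12.94 against 12.28 and 12.98, a difference of -0.79 (SE 0.46) with overlapping groups. The dimmest probe set, 1443250_at, read 7.45 on wild-type array 1 and 6.27, 6.18 and 6.16 on the other 3 arrays, a difference of -0.69 (SE 0.46).

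The fourth probe set of Rgs2, 1419248_at, behaved otherwise. It read 12.37 and 12.84 in wild type, against 12.35 and 12.91 in the knockout, so that arrays 1 of both genotypes were low and arrays 2 high, with a difference of 0.027 (95% interval -0.85 to 0.91). It was designed from the same source sequence as 1419247_at. Knockout array 1 lay below knockout array 2 by 0.89, 0.70 and 0.56 on 1419247_at, 1447830_s_at and 1419248_at. Without wild-type array 1 all 4 probe sets of Rgs2 had a lower knockout mean, by -0.65, -0.31, -0.20 and -0.095, and 0 of them passed an adjusted p of 0.05 in limma.

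On Rgs4 the arrays of each genotype lay further apart than the genotype means. Probe set 1416286_at read 9.08 and 7.68 in wild type, against 8.93 and 8.24 in the knockout, a difference of 0.20 (95% interval -1.48 to 1.89). Probe set 1416287_at read 7.34 and 5.73 against 7.16 and 6.25, a difference of 0.17 (95% interval -1.82 to 2.15). On both, array 1 of each genotype was high and array 2 low, by 1.39 and 1.62 in wild type and by 0.69 and 0.91 in the knockout. The third probe set, 1448285_at, designed from the same source sequence, read 2.69 to 2.81. Without wild-type array 1 the differences were 0.90 and 0.97, and without wild-type array 2 they were -0.49 and -0.64, so the direction depended on which wild-type array was kept.

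Markers of chromaffin cells, the catecholamine cells of the medulla, were mostly higher on array 1 than on array 2 of each genotype, as was Rgs4. Of the 10 marker genes listed, 9 were measured. All 9 were higher on wild-type array 1 than on array 2, with a median gap of 0.68, and 8 of 9 were higher on knockout array 1 than on array 2, with a median gap of 0.79. Their summed level, as log2 of the sum of linear values, was 16.01 and 15.36 in wild type, against 15.92 and 15.31 in the knockout. The markers' part in the Rgs4 values was not tested. Markers of the adrenal cortex mostly had the same order, with much smaller gaps. Of the 9 measured, 6 were higher on array 1 in wild type and 8 in the knockout. Their median gap was 0.052 in each genotype, and their summed levels were 16.80 and 16.78 in wild type, against 16.72 and 16.66 in the knockout. The order was not particular to chromaffin markers. Endothelial markers had summed levels of 11.76 and 11.20 in wild type, against 11.62 and 11.40 in the knockout. Of these, 7 of 8 were higher on array 1 in wild type and 4 of 8 in the knockout. The gap of Rgs4 was wider in wild type than in the knockout, as were those of the endothelial sum and, slightly, of the chromaffin sum. The median gap of the chromaffin genes was wider in the knockout. Over all tested probe sets the median distance between arrays was also wider in wild type, 0.44 against 0.15.

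**Figure D3:**
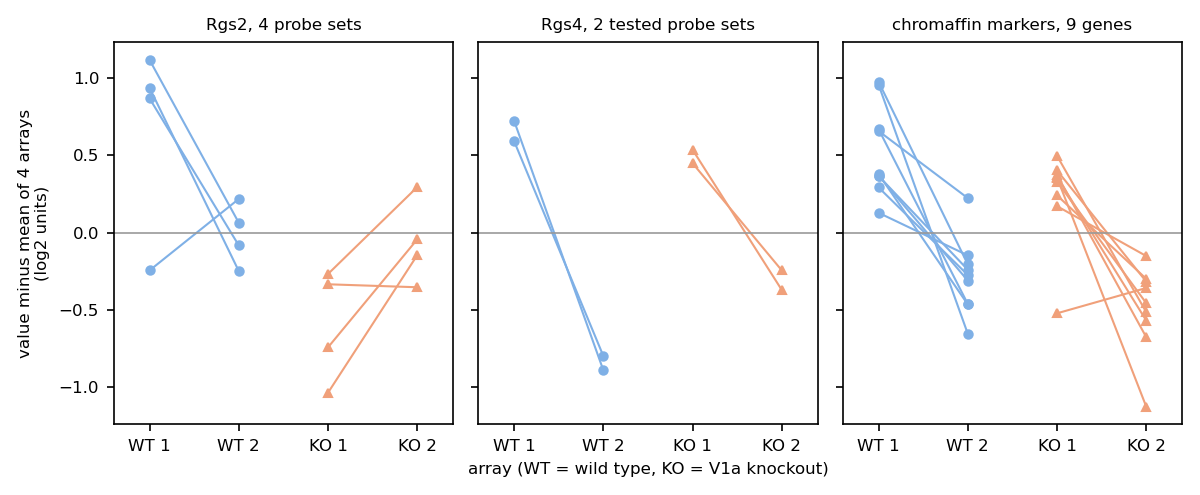
Value on each array minus the mean of the 4 arrays, in log2 units, for the 4 probe sets of Rgs2, the 2 tested probe sets of Rgs4 and 9 chromaffin marker genes, with arrays on the horizontal axis and 1 line per probe set or gene within a genotype. Rgs4 is higher on array 1 than on array 2 in both genotypes, as are all 9 marker genes in wild type and 8 of 9 in the knockout, while 3 of 4 probe sets of Rgs2 are lower on knockout array 1 than on knockout array 2.

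Camk2d encodes the delta subunit of calcium/calmodulin-dependent kinase II, which responds to the calcium that IP3 releases. All 3 tested probe sets had a higher mean in the knockout, and so it was with each array left out in turn. Probe set 1422659_at read 5.65 and 8.24 in wild type, against 8.81 and 8.77 in the knockout. The groups did not overlap, but the wild-type arrays lay 2.58 units apart and the knockout arrays 0.041, and the difference of 1.85 had an interval from -0.89 to 4.58 (limma adjusted p = 0.794). Without wild-type array 1 the difference was 0.56 (SE 0.087, limma unadjusted p = 0.0184, adjusted p = 0.417).

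The dimmer Camk2d probe sets gave smaller differences. On 1460630_at the wild-type arrays read 5.39 and 5.39 and the knockout arrays 5.70 and 5.73, a difference of 0.33 (SE 0.15, limma unadjusted p = 0.104, adjusted p = 0.794). The groups did not overlap, each genotype's arrays lay within 0.024 units, and the difference was the same, 0.33, without wild-type array 1. On 1427763_a_at the values were 4.28 and 5.04 against 5.23 and 5.03, a difference of 0.47 (SE 0.33), and 0.091 without wild-type array 1. The 4 probe sets of Camk2d below the filter read at most 3.47.

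Wild-type array 1 lay outside the range of the other 3 arrays on 21 of the 23 probe sets, or 91.3%. It was the highest array on 15 and the lowest on 6. Over all tested probe sets it lay outside on 73.9%, as the highest on 8116 and the lowest on 4619 of 17228. On Camk2d 1460630_at it was lowest by 0.0009 units. Its distance from the median of the other 3 was larger than their whole range on 15 of the 23 (65.2%), against 56.7% over all tested probe sets. The direction went by gene in part. It was highest on all tested probe sets of Gna11, Itpr2 and Rgs4 and on the 1 each of Plcb3 and Plcb4. It was lowest on the 3 of Camk2d, and on both sides within Gnaq. The median distance between the wild-type arrays was 0.76 units on the members, against 0.14 between the knockout arrays, and over all tested probe sets 0.44 against 0.15.

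**Figure D4:**
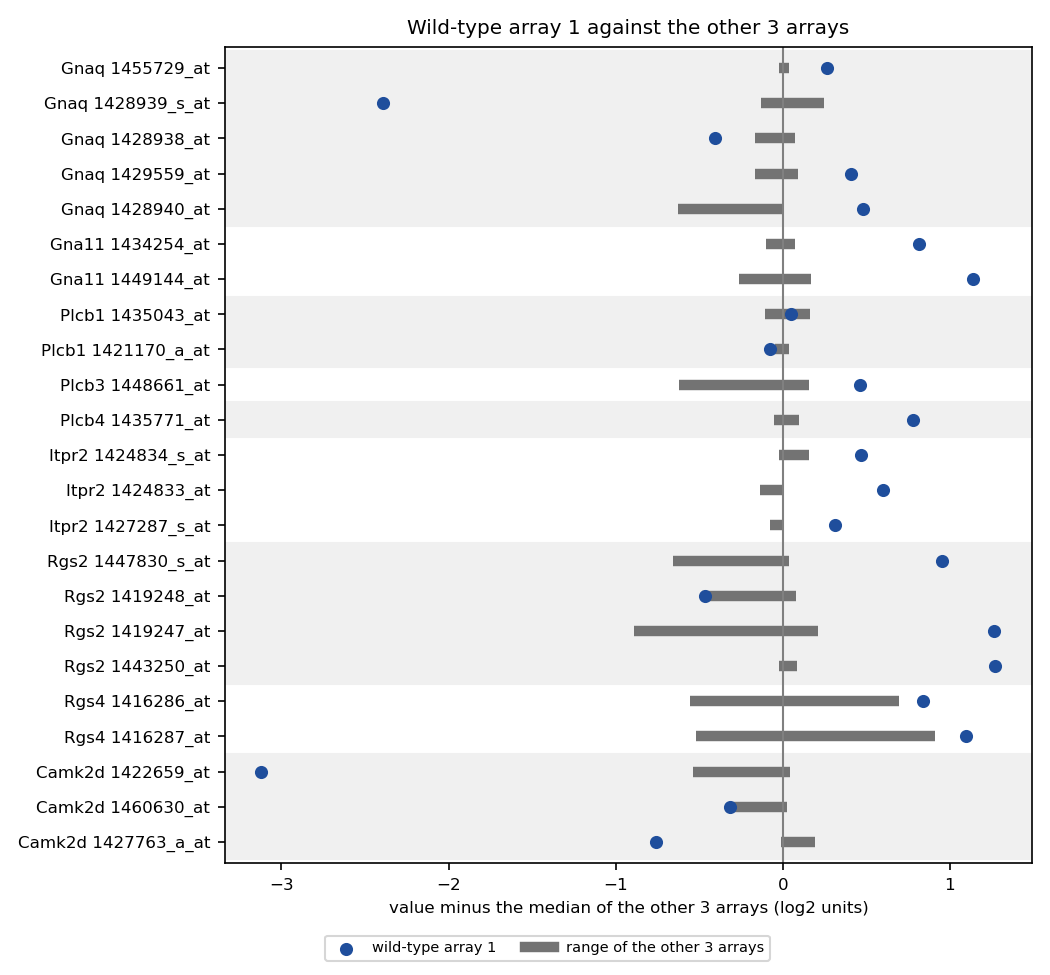
Value of wild-type array 1 (points) minus the median of the other 3 arrays, in log2 units, with grey bars for the range of these 3, for the 23 tested probe sets (rows). The points lie outside the bars on 21 of 23 rows, on the right for Gna11, Itpr2 and Rgs4 and on the left for Camk2d.

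Leaving this array out brought 3 of the 23 probe sets to an unadjusted p under 0.05 in limma, all higher in the knockout, where 12.0% of all tested probe sets were (6.60% higher and 5.37% lower). They were Gnaq 1428940_at (0.63, SE 0.083), Plcb3 1448661_at (0.70, SE 0.13) and Camk2d 1422659_at (0.56, SE 0.087), each with an adjusted p of 0.417. With wild-type array 2 left out instead, 11 of 23 were at an unadjusted p under 0.05, 4 higher and 7 lower, against 37.8% of all tested probe sets (15.8% higher and 22.0% lower), and 0 passed after adjustment (smallest adjusted p 0.0721). With 1 wild-type array the lone array is assumed to vary like the knockout arrays. Leaving out knockout array 1 or 2 gave 0 of 23, where 0.981% and 1.19% of all tested probe sets were called.

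Probe sets of the same gene were then set against each other. In 14 pairs from 7 genes, the brightest tested probe set against each other one, the sign of the difference was the same in 10 pairs, where it was the same in 59.2% of 5780 pairs over all genes. Gna11, Plcb1, Itpr2, Rgs4 and Camk2d had the same sign on all their tested probe sets, whereas Gnaq and Rgs2 did not. A test of the disagreement itself, limma on the within-array difference of the probe sets, called 0 of the 14 pairs and 0 of 5780 at an adjusted p of 0.05. At an unadjusted p under 0.05 it gave 0 of 14, against 3.39% of all pairs.

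The widest disagreements had wide errors. Camk2d 1422659_at differed more than 1460630_at by 1.52 units (95% interval -1.03 to 4.06), and than 1427763_a_at by 1.38 (95% interval -0.47 to 3.23). Gnaq 1455729_at and 1428939_s_at disagreed by -1.36 (95% interval -4.02 to 1.31), and Rgs2 1447830_s_at and 1419248_at by -0.81 (95% interval -2.30 to 0.67). Without wild-type array 2, so with wild-type array 1 as the only one of its genotype, 5 of the 14 pairs passed an adjusted p of 0.05, beside 32.4% of all pairs. These were the 2 of Camk2d, Gnaq 1455729_at against 1428939_s_at and 1428938_at, and Rgs2 1447830_s_at against 1419248_at. Without wild-type array 1, 0 of the 14 passed, beside 0.0519% of all pairs. Across all genes, pairs designed from the same source sequence had the same sign in 59.8% of 1784 and other pairs in 59.0% of 3996.

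The wider pathway was followed in lists of 154 further genes, with the brightest probe set for each gene. Of these, 91 were measured, 40 higher and 51 lower in the knockout, and the median was -0.054, beside -0.049 over all 10110 genes. In limma 0 of the 91 passed an adjusted p of 0.05, as did 0 of all genes, and 4 had an unadjusted p under 0.05 (3 higher and 1 lower), or 4.40%, where 5.16% of all genes did (2.19% higher and 2.98% lower). The 1 lower, Nfatc2, reached the filter on the wild-type arrays only. The groups did not overlap on 29 of the 91 (12 higher and 17 lower), or 31.9%, against 37.7% of all genes. The count at an unadjusted p under 0.05 rose when either wild-type array was left out, as it did over all tested probe sets. List medians are given with each wild-type array left out where their sign or size turned on it.

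Among receptors, Avpr1b and Avpr2, the other vasopressin receptors, read 2.304 on every array. Oxtr, the receptor for the related hormone oxytocin, had 1 tested probe set, which read 5.83 and 5.92 in wild type, against 6.17 and 5.56 in the knockout, with overlapping groups. Of 25 other receptors that couple to Gq, 8 were measured, 4 higher and 4 lower, with a median of 0.14, which was 0.22 without wild-type array 1 and -0.063 over the 7 genes with a plain probe set. The smallest p values belonged to the endothelin receptor Ednrb at 0.54 (SE 0.25), the thrombin receptor F2r at 0.58 (SE 0.28) and the lysophosphatidic acid receptor Lpar1 at -0.66 (SE 0.34), each with groups that did not overlap and each with the same sign on both of its tested probe sets.

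Of 16 other G protein subunits, 14 were measured, 5 higher and 9 lower, with a median of -0.071, which was 0.15 without wild-type array 1 and -0.51 without wild-type array 2. Gna13, the alpha subunit of G13, read 9.05 and 8.92 in wild type, against 9.70 and 9.43 in the knockout, or 0.58 between the means (SE 0.20, limma unadjusted p = 0.0413, adjusted p = 0.806), with the same sign on 4 of its 6 tested probe sets. Gnai1, an alpha subunit that inhibits adenylyl cyclase, differed by -1.50 (SE 0.55), and Gnb1, a beta subunit, by -0.83 (SE 0.32), both with groups that did not overlap. The 7 measured of 11 other phospholipases C had a median of -0.054, with 3 higher and 4 lower, and the median was 0.23 without wild-type array 1 and -0.19 without wild-type array 2. Their smallest p values belonged to Plce1 at -0.31 (SE 0.20), Plcd3 at -0.30 (SE 0.21) and Plcd1 at 0.37 (SE 0.31).

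Genes that act on IP3 and diacylglycerol had a median of -0.051 over 23 of 31, with 9 higher and 14 lower. The median was 0.067 without wild-type array 1, and without wild-type array 2 it was -0.22. Dgkh, a kinase that removes diacylglycerol, read 6.03 and 6.32 in wild type, against 5.40 and 5.86 in the knockout, or -0.55 between the means (SE 0.26). Prkd2, a kinase that diacylglycerol recruits, differed by 0.75 (SE 0.46), and Pip5k1b, which makes the lipid that phospholipase C cuts, by -0.59 (SE 0.40). Prkd2 and Pip5k1b each kept their sign on 2 of 3 tested probe sets. Calcium stores and entry had a median of 0.024 over 9 of 19 genes (-0.050 without wild-type array 1 and -0.038 without wild-type array 2), with Orai1, a calcium channel of the plasma membrane, at -0.59 (SE 0.34), the mitochondrial uniporter Mcu at -0.28 (SE 0.32) and the store sensor Stim1 at -0.17 (SE 0.19).

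Other RGS proteins had 6 of 16 genes measured, 5 higher and 1 lower, with a median of 0.27. Rgs19 read 6.37 and 6.91 in wild type, against 7.28 and 7.45 in the knockout, or 0.72 between the means (SE 0.26, limma unadjusted p = 0.0493, adjusted p = 0.806), but only 1 of its 2 tested probe sets had this sign. Rgs5, also a marker of pericytes, differed by 0.52 (SE 0.28) and Rgs10 by -0.47 (SE 0.30). The median of this list was -0.13 without wild-type array 2, 0.36 without wild-type array 1, 0.0043 over all 16 genes with no filter and 0.025 over the 3 genes with a plain probe set. Receptor kinases and arrestins, which silence the receptor, had a median of -0.17 over 5 of 7 genes, with Grk5 at -0.17 (SE 0.21, this sign on 1 of its 2 tested probe sets), Grk6 at -0.23 (SE 0.36) and Arrb2 at 0.11 (SE 0.19). That median was 0.22 without wild-type array 1 and -0.37 without wild-type array 2.

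In the list of calmodulin, its kinases and its phosphatase calcineurin, 18 of 25 genes were measured, 8 higher and 10 lower, with a median of -0.062, which was 0.092 without wild-type array 1 and -0.18 without wild-type array 2. Nfatc2, a transcription factor that calcineurin activates, read 4.70 and 4.48 in wild type, against 3.77 and 3.43 in the knockout, or -0.99 between the means (SE 0.22, limma unadjusted p = 0.0106, adjusted p = 0.806). It reached the filter of 4 units on the wild-type arrays only. It thus entered the test through the group where it was high, which favoured this direction, and its p is no support for a difference. Nfatc1, of the same family, read 5.30 and 5.24 against 5.79 and 5.78, a difference of 0.52 (SE 0.17, limma unadjusted p = 0.0360, adjusted p = 0.806), with the same sign on both of its tested probe sets. Camk2b, the beta subunit of the kinase to which Camk2d belongs, read 6.98 and 5.80 in wild type, against 5.38 and 5.03 in the knockout, or -1.18 between the means (SE 0.46). Its direction was opposite to that of Camk2d, and neither passed the threshold.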

How the data were processed

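Adrenal gland RNA was hybridised to Affymetrix Mouse Genome 430 2.0 arrays, 2 per genotype. The authors made the deposited log2 expression values per probe set with GCRMA (Bioconductor 3.14), as the submitters' processing notes and labels record. The log2 scale was read from the values, and the GCRMA version is not given in the sources used here. GCRMA subtracts a modelled background and normalizes between arrays, so differences of dim probe sets are compressed toward a floor of 2.304. No further normalization was applied. Without the 64 control probe sets, those with 4 log2 units or more on 2 or more arrays were tested. The platform annotation gave the gene names. No probe set with several genes was used for a gene.

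The genotypes were compared with lmFit and eBayes of limma 3.58.1 (R 4.3.3), with genotype as the only term, and p-values of all 17228 tested probe sets were adjusted together by Benjamini-Hochberg. The threshold was an adjusted p of 0.05, and each interval is limma's 95% interval. There were 2 residual degrees of freedom and 1.73 prior ones. Disagreement between probe sets of a gene was tested by limma on the within-array difference, the brightest probe set minus each other, over 5780 pairs of 3861 genes. For lists, the brightest probe set stood for its gene (10110 genes). The number of arrays limits the precision. Alternatives were other filters, quantile normalization, median centring, a variance trend, plain probe sets, the replicate number as a block, each array left out and probe sets averaged per gene. The limma fit, but not the other steps, was tried on simulated arrays, in 10 runs with 200 changed probe sets each. At an adjusted p of 0.05 it recovered 0% of changes of 1 log2 unit, 10% of 2 units and 51.4% of 4 units. A count of 0 therefore does not show that such changes are absent.

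Named are all member genes, the vasopressin and oxytocin receptors, the 3 genes with the smallest p in each pathway list, and in each marker list the 2 brightest and the 1 with the smallest p. Gna14, Ucp1 and Cidea were named outside this rule, after their values were seen. Promoter letters come from RefSeq on GRCm38.p6, where 9 member genes were matched by symbol. The array values carry no genome build. The members and lists were chosen with earlier results of these data known.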

Additional observations from a re-analysis of the deposited data

How the results depend on the processing

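The count of member probe sets past an adjusted p of 0.05 in limma was 0 under every alternative run. Of the 23 probe sets, 14 kept 1 direction throughout and 9 turned, each of them only when an array was left out. Dim probe sets have no value with the filter at 6 units, nor do those with a suffix other than _at among plain probe sets. Over the 4 left-out arrays the differences ran from -0.25 to 0.041 (Gnaq 1455729_at), -0.36 to 0.21 (Gnaq 1429559_at), -0.48 to 0.63 (Gnaq 1428940_at), -0.13 to 0.14 (Plcb1 1435043_at), -0.38 to 0.70 (Plcb3), -0.76 to 0.023 (Plcb4), -0.25 to 0.31 (Rgs2 1419248_at), -0.49 to 0.90 (Rgs4 1416286_at) and -0.64 to 0.97 (Rgs4 1416287_at). With the mean of its probe sets, Gnaq turned from -0.10 to 0.30, since probe sets of both signs enter that mean.

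Leaving out each array moved the counts at an unadjusted p under 0.05 from 0 to 11 for member probe sets, 0 to 4 for member genes, 0 to 5 for member pairs, 1 to 31 for pathway genes and 169 to 6507 for all probe sets. The count of member pairs at an adjusted p of 0.05 ran from 0 to 5, and that of all probe sets at p under 0.01 with a 2-fold difference, 144 on all arrays, from 25 to 1497. Without a filter, 1545 of 45037 probe sets lay under 0.05, and 78 met both the limit of 0.01 and the 2-fold one. Under 0.05 there were also 1 of 40 member probe sets and 1 of 31 member pairs. The probe set was Camk2d 1460630_at (limma unadjusted p = 0.000491, adjusted p = 0.484). Its difference was 0.33 with and without the filter, while its SE was 0.15 with the filter and 0.011 without it. The low p thus went with a smaller SE and not with a larger difference. At an adjusted p of 0.05, 2 probe sets of the whole array, neither of them a member, passed under any of plain probe sets, a filter at 6 units, centring on the median and quantile normalization, against 0. Pathway genes at an unadjusted p under 0.05 were 2 with a variance trend and 2 with the mean of the probe sets, against 4. The replicate numbers do not pair the samples by the labels. With the replicate number as a block the counts were 684 of all probe sets at an unadjusted p under 0.05, 126 at p under 0.01 with a 2-fold difference, 0 member probe sets and 6 pathway genes, and same-numbered arrays deviated together at a correlation of 0.154.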

Other observations

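Markers of other cells that a gland sample can hold were read beside these genes, and in limma 0 of them passed an adjusted p of 0.05. In the cortex, 9 of 9 markers were measured with a median difference of -0.12, among them Fdx1 at -0.27, Star at 0.034 and Nr5a1 at -0.37. Zona glomerulosa markers had a median of 0.18 over 4 of 5, with Dab2 at 0.18, Cyp11b2 at 0.18 and Vsnl1 at 0.52. Only 1 of the 2 tested probe sets of Vsnl1 had this sign. Chromaffin markers had a median of -0.13, with Chgb at 0.019, Chga at -0.059 and Penk at -0.88. Smooth muscle and pericyte markers had a median of -0.21 over 6 of 9, with Rgs5 at 0.52, Tagln at -0.74 and Des at -0.46. Endothelial markers had a median of 0.049 over 8 of 8, with Emcn at 0.060, Plvap at 0.098 and Kdr at -0.36. Macrophage markers had 0.15 over 9 of 9, with Ctss, which also had the smallest p, at 0.83 and Lyz2 at 0.30, and capsule and fibroblast markers -0.33 over 7 of 9, with Dcn at -1.00, Col3a1 at 0.13 and Postn at -0.67.

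Markers of adipocytes differed between arrays of both genotypes, with summed levels of 13.31 and 12.83 in wild type, against 12.29 and 13.39 in the knockout and a median difference of -0.68 over 7 of 9. Among them Fabp4 differed by -0.031, Adipoq by -0.26 and Slc2a4 by -1.56. The largest differences of this list were those of Ucp1 and Cidea, named after their values were seen. Ucp1 differed by -4.29 (10.05 and 7.24 in wild type, against 2.80 and 5.91 in the knockout). Cidea differed by -3.57 (9.78 and 6.78 against 3.37 and 6.06). Both were highest on wild-type array 1 and lowest on knockout array 1. Rgs2 was lowest on knockout array 1 on all of its probe sets but 1443250_at, as was the adipocyte sum. The sums of smooth muscle and pericyte, capsule and fibroblast, and kidney markers were also lowest there, at 11.08, 10.66 and 7.21. This low value was thus not particular to adipocyte markers. The adipocyte sum was highest on knockout array 2, whereas Rgs2 was highest there on 1419248_at only. The part of any of these markers in the Rgs2 values was not tested. Schwann cell and glial markers had a median of 0.044 over 5 of 8, with Fabp7 at -0.61, Mbp at 0.26 and Sox10 at -0.81. Sox10 reached the filter of 4 units on the wild-type arrays only. Of the liver markers 1 of 6 was measured, Serpina1b at -5.28 (7.97 and 7.20 in wild type, at the floor of 2.304 on both knockout arrays), and of the kidney markers 2 of 7, Aqp1 at -0.83 and Fxyd2 at -0.94. Serpina1b too passed the filter through the wild-type arrays only.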
